A study of Mus musculus with 6 samples.

Results

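The clustered histone genes of the mouse were followed in tumor-associated macrophages (TAMs) sorted from ID8 tumors. Members were chosen by name: every row of the gene table whose Ensembl ID carries a GENCODE M21 symbol starting Hist1h, Hist2h, Hist3h or Hist4h, which gave 70 genes of 56980 in the table. Attention had been drawn to them because neighboring genes on chromosome 13, mostly histone genes, were high in 2 of the C5aR-/- libraries in earlier results of these data. The values that separate the groups were therefore part of the choice, and the comparison below is a description: no p is given for a member, and counts from the fit across all genes are not evidence of a difference. Of the 70, 6 encode linker histone H1, 20 H2A, 19 H2B, 12 H3 and 13 H4, and 67 are annotated as protein-coding and 3 as pseudogenes.

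ID8 is a mouse ovarian epithelial cancer line, and its cells were injected into the peritoneum of C57BL/6 (WT) mice or of C5aR-/- mice on a C57BL/6 background, which lack the C5a receptor in the whole body. The mice were 6 to 8 weeks old, and tumors were collected 2 months after injection. Live CD45+CD11b+Ly6G-F4/80+ cells were sorted, and poly(A) RNA was sequenced from 3 libraries per group, named here WT TAM 1 to 3 and C5aR-/- TAM 1 to 3. The tumor cells came from the same line in both groups, while every host cell of the C5aR-/- mice lacked the receptor, so that a change within TAMs and a change around them cannot be told apart in this design.

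Histones are the proteins around which DNA is wrapped: H2A, H2B, H3 and H4 form the nucleosome core, and H1 binds the linker DNA between nucleosomes. Most of their genes are intronless, lie in clusters, and are transcribed mainly in S phase, when new DNA has to be packaged. Their main transcripts end in a conserved stem-loop bound by the stem-loop binding protein Slbp, not in a poly(A) tail. Polyadenylated forms also exist, particularly in differentiated cells, and oligo(dT) selection favors these forms, so that the levels below do not describe the whole of histone RNA. How much histone RNA without a poly(A) tail remained after the selection, and whether this differed between libraries, was not measured.

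The stem-loop is what marks these transcripts. It is shown for well-expressed members of each class and for Hist1h4b, a low H4 gene with a rarer form. It was searched in the transcripts of GENCODE M21 after the stop codon, as an arm of 6 bases starting GG, a loop of 4 bases starting TTT, and a second arm that is the exact reverse complement of the first. The capitals mark the stem-loop, the lower-case letters are up to 6 bases on each side, and the sequences run 5′ to 3′ on the transcript.
Hist1h1c: ccaaaaGGCTCTTTTCAGAGCCaccact
Hist2h2aa1: taaaaaGGCTCTTTTCAGAGCCacccac
Hist1h2bg: cccaaaGGCTCTTTTCAGAGCCacccat
Hist1h3a: accaaaGGCTCTTTTCAGAGCCacacac
Hist1h4n: actaaaGGCCCTTTTCAGGGCCatccaa
Hist1h4i: cttaaaGGCCCTTTTTAGGGCCaccaca
Hist1h4b: acaaaaGGTCCTTTTCAGGACCactcac
Their stem-loops lie, in GRCm38, at chr13:23739512-23739527 (Hist1h1c, plus strand), chr3:96246032-96246047 (Hist2h2aa1, plus), chr13:23571843-23571858 (Hist1h2bg, plus), chr13:23761890-23761905 (Hist1h3a, minus), chr13:21831798-21831813 (Hist1h4n, minus), chr13:22040966-22040981 (Hist1h4i, minus) and chr13:23757366-23757381 (Hist1h4b, plus), all in the 3′ UTR.

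The stem-loop was found in 44 of the 67 members with a coding transcript (65.7%), against 19 of 21834 other protein-coding genes (0.087%). It began 21 to 58 bases after the stop codon. The letters in the stem differed by class: the arm of all 11 H4 stem-loops was written with GGCCC or GGTCC, and that of the 33 others with GGCTC. The most frequent form, shown for Hist1h1c, was shared by 26 members of H1, H2A, H2B and H3 and by none of H4. Of the 23 members without a match, 15 have at most 2 annotated bases after the stop codon, so that the window searched was empty there and nothing can be read from the lack of a match.

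A second feature sits upstream, where H2A and H2B genes often stand head to head and share the DNA between their starts. The octamer ATTTGCAT, the letters bound by Oct factors and long known from H2B promoters, was searched on both strands in the 250 bases before the RefSeq start (GRCm38.p6) of the 61 members that could be matched. It was present in 13 of 61 members (21.3%), namely 7 of 18 H2A and 6 of 16 H2B genes, and in 490 of 27025 genes with a promoter in the same table (1.81%). The windows of head-to-head genes overlap, so that the same site can count for both. This holds for Hist1h2ae and Hist1h2bg, Hist1h2ah and Hist1h2bk, and Hist1h2aa and Hist1h2ba, and the distinct sites are fewer than the members. No H1, H3 or H4 window held these letters, which says nothing about the factor elsewhere. CCAAT, searched in the same way, was in 82.0% of the members and 37.5% of all genes, and TATAAA in 45.9% and 14.3%. No octamer overlapped a CCAAT or TATAAA. The windows of 30 bases around 3 of the octamers, in capitals, are given because they stand between head-to-head genes described below.
Hist1h2bg: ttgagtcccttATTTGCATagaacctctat
Hist1h2ae: atagaggttctATGCAAATaagggactcaa
Hist1h2bk: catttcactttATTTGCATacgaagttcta
Hist1h2ac: tgggtgggattATGCAAATgaagtttccag
The first and second are the same site, chr13:23571330-23571359, read on the plus strand toward Hist1h2bg and on the minus strand toward Hist1h2ae. The third, at chr13:22035780-22035809, is read toward Hist1h2bk on the plus strand. The fourth, at chr13:23684071-23684100 on the minus strand, lies between Hist1h2ac and Hist1h2bc.

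C5ar1, which encodes the deleted receptor, was at 86.5, 37.3 and 16.2 TPM in WT TAM 1 to 3 and at 0.38, 0.11 and 0.05 TPM in the C5aR-/- libraries, so that every library matched its label. TPM is the share of a library's transcripts taken by a gene, corrected for length and scaled to a sum of 1000000, and the read depth behind it is unknown, so that no counting error can be given. Between 14393 and 15015 genes reached 1 TPM per library. The sorted cells carried macrophage RNA, in amounts that differed strongly between libraries. The 10 macrophage markers examined summed to 6812, 2773 and 1736 TPM in WT TAM 1 to 3. In C5aR-/- TAM 1 to 3 they summed to 6035, 3455 and 1520 TPM, so that the sum fell with library number in both groups. Lyz2 made up most of this sum. In WT TAM 1 to 3, Ptprc, Fcgr1 and Aif1 did not fall in this order and the other markers did, while in C5aR-/- TAM 1 to 3 all of them did. The median difference of the 10 was 0.61, with 6 above 0 and 4 below, and 2, Fcgr1 and Aif1, lay above WT without overlap, beside 8.84% of all genes tested. Their part in the histone levels was not tested. The libraries also carried RNA of 8 epithelial or mesothelial genes, which sums to 2677 to 3045 TPM in WT and 2332 to 3075 TPM in C5aR-/- TAMs although the sort was for CD45+ cells. In WT TAM 3 and C5aR-/- TAM 3, at 3045 and 2332 TPM, it was above the sum of the macrophage markers, although sums of different genes do not give shares of cells. C5aR-/- TAM 1 stood apart by its erythroid RNA, with 26560 TPM over 6 genes against 332.5 to 7262 TPM in the other 5 libraries.

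All 5 histone classes had higher summed levels in the C5aR-/- libraries than in the WT libraries, and in none of them did the groups overlap. Over all 70 members the summed level was 579.8, 508.5 and 476.7 TPM in WT TAM 1 to 3, and 852.5, 1104 and 940.0 TPM in C5aR-/- TAM 1 to 3. This gave 521.7 ± 52.8 TPM against 965.4 ± 127.5 TPM (mean ± SD, n = 3), a ratio of 1.85. The members thus took 0.0477% to 0.058% of all TPM in WT and 0.0853% to 0.110% in C5aR-/- libraries. As the sum covers every member, a filter on low values plays no part in it. In bulk RNA of this kind, a different number of cells that express a gene and a different amount of RNA per cell cannot be told apart.

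H1 summed to 180.8, 95.8 and 93.0 TPM in WT TAM 1 to 3 and to 216.6, 366.3 and 254.2 TPM in C5aR-/- TAM 1 to 3, the widest spread of any class and a log2 ratio of the means of 1.18. H2A, the class with the highest sum, was at 163.8, 178.9 and 177.9 TPM in WT and 334.9, 302.4 and 265.6 TPM in C5aR-/- libraries (log2 ratio 0.79). H2B was at 168.7, 148.8 and 130.4 TPM in WT and 196.9, 285.0 and 275.7 TPM in C5aR-/- libraries (log2 ratio 0.76). The core classes H3 and H4 were lower. H3 summed to 30.7, 23.3 and 27.4 TPM in WT and 38.2, 61.8 and 62.7 TPM in C5aR-/- libraries (log2 ratio 0.999). H4 summed to 35.8, 61.8 and 48.1 TPM in WT and 65.9, 88.1 and 81.9 TPM in C5aR-/- libraries (log2 ratio 0.70). C5aR-/- TAM 1 was the lowest of its group in H1, H2B, H3 and H4 and the highest in H2A.

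**Figure D1:**
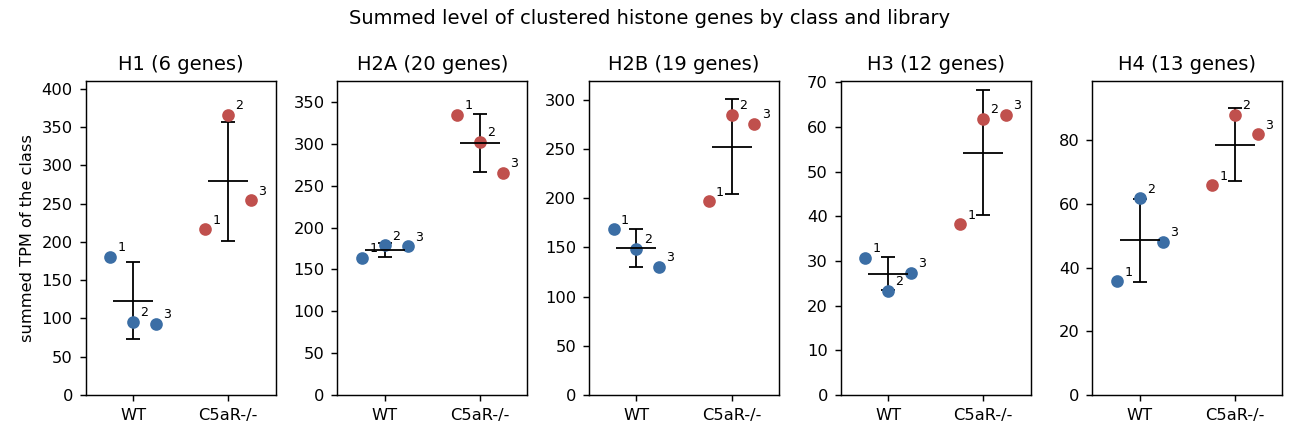
Summed TPM of the members of each histone class (vertical axes, linear from 0) in the 3 WT and 3 C5aR-/- TAM libraries (points, numbered by replicate), with the group mean (bar) and SD (whiskers). In each class the lowest C5aR-/- library lies above the highest WT library, by the smallest margin in H4 (65.9 against 61.8 TPM).

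A few genes carried most of this RNA. The 5 highest members, Hist1h1c, Hist1h2bc, Hist2h2aa1, Hist2h2aa2 and Hist1h2bg, were the only ones with a mean of at least 20 TPM over the 6 libraries, and together they held 67.3% of the summed level. They summed to 371.3 ± 63.0 TPM in WT and 630.0 ± 104.5 TPM in C5aR-/- TAMs, a ratio of 1.70. The other 65 summed to 150.4 ± 10.4 TPM and 335.4 ± 79.7 TPM, a ratio of 2.23, and the groups overlapped in neither sum. Without its highest member, the groups still did not overlap for H1, H2A and H3. For H2B they did once Hist1h2bc was left out (87.7, 55.0 and 38.0 TPM in WT and 55.4, 120.5 and 136.6 TPM in C5aR-/- libraries). For H4 they did once Hist1h4i was left out, where WT TAM 2, at 49.1 TPM, lay above C5aR-/- TAM 1, at 46.0 TPM.

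**Figure D2:**
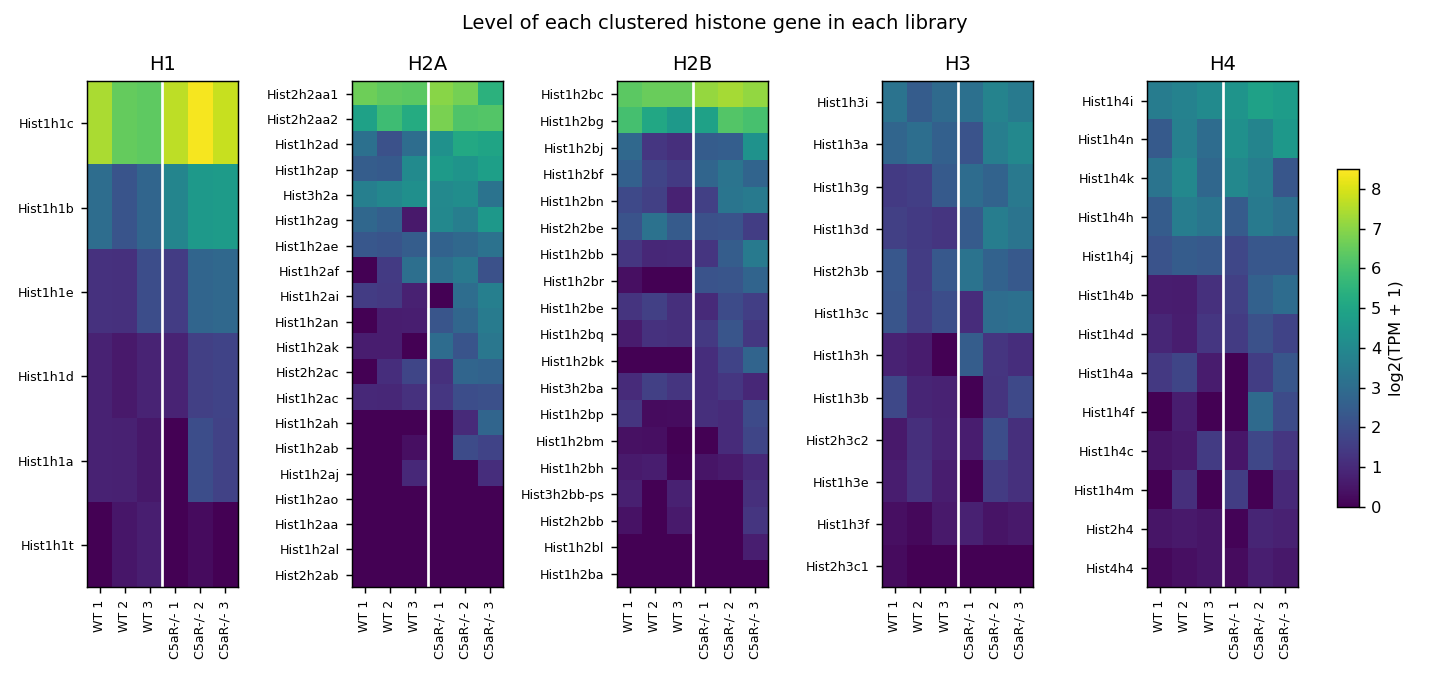
Level of each of the 70 members, as log2(TPM + 1) by color, in the 6 libraries (columns, WT left and C5aR-/- right of the white line), by class and in order of the mean. A few rows per class are bright in all libraries, most rows are low, and many low rows are brighter in C5aR-/- TAM 2 and 3 than in the others.

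Of the 70 members, 48 reached 1 TPM in 3 or more libraries and entered the fit across all genes, and 22 did not. Of the 48, 21 reached this level in fewer than 3 WT libraries and so passed through the C5aR-/- group as well, which favors differences upward. In limma's test on log2(TPM + 1) no member, and no gene of the 14776 tested (0.0%), had an adjusted p below 0.05 together with a 2-fold difference or more. C5ar1, the deleted gene, did not pass either, with a difference of -5.04 ± 0.56 and an adjusted p of 0.0666 in the same test. An adjusted p above 0.05 here is therefore no sign that levels were equal. With the p left unadjusted, 17 of 48 members were higher in C5aR-/- TAMs, against 2.13% of all genes tested, and 0 members were lower, against 2.84% of all genes. In 23 of 48 members every C5aR-/- library lay above every WT library, against 8.84% of all genes, and in 1, Hist2h2be, every one lay below, against 12.5% of all genes. The choice of members used this contrast, and these counts are descriptions. Of the tested members, 5 reached 1 TPM in no WT library and so passed the filter through the C5aR-/- group alone. They are Hist1h2ak, Hist1h2an, Hist1h2bk, Hist1h2br and Hist1h3h. All 5 are among both the 17 and the 23, and their direction and lack of overlap followed from the filter.

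The difference in mean log2(TPM + 1) between C5aR-/- and WT TAMs was above 0 in 39 of the 48, with a median of 0.81, beside a median of -0.05 over all genes tested. Over all genes tested it was above 0 in 6570 of 14776, which is also the measure for the counts of genes above 0 given below. Without the filter, 65 members could be fitted and 53 of them were above 0. Single libraries contributed unequally. C5aR-/- TAM 2 lay above all 3 WT libraries in 38 of the 48 members and C5aR-/- TAM 3 in 37, but C5aR-/- TAM 1 in 25. Over all genes tested these shares were 26.6%, 31.9% and 29.7%. C5aR-/- TAM 1 also listed 20 of the 70 members at 0, while TAM 2 listed 11 and TAM 3 listed 7, and the WT libraries 14 to 16. With C5aR-/- TAM 1 left out, 8 members passed the same limit on adjusted p and fold in limma, among 356 genes in all (2.41%). As the members drew attention through high values in 2 C5aR-/- libraries, this count rests on values behind the choice and is a description. Hist1h2an, Hist1h2bk and Hist1h2br, among these 8, passed the filter through the C5aR-/- group alone. Erythroid RNA set C5aR-/- TAM 1 apart from all others, but other values also differed within its group. Macrophage markers summed to 6035 TPM, against 3455 and 1520 TPM in C5aR-/- TAM 2 and 3. B cell markers summed to 153.8 TPM, against 49.6 and 8.09 TPM. The replication and mitosis sums given below were the lowest of the group. The part of these values in the result was not tested.

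**Figure D3:**
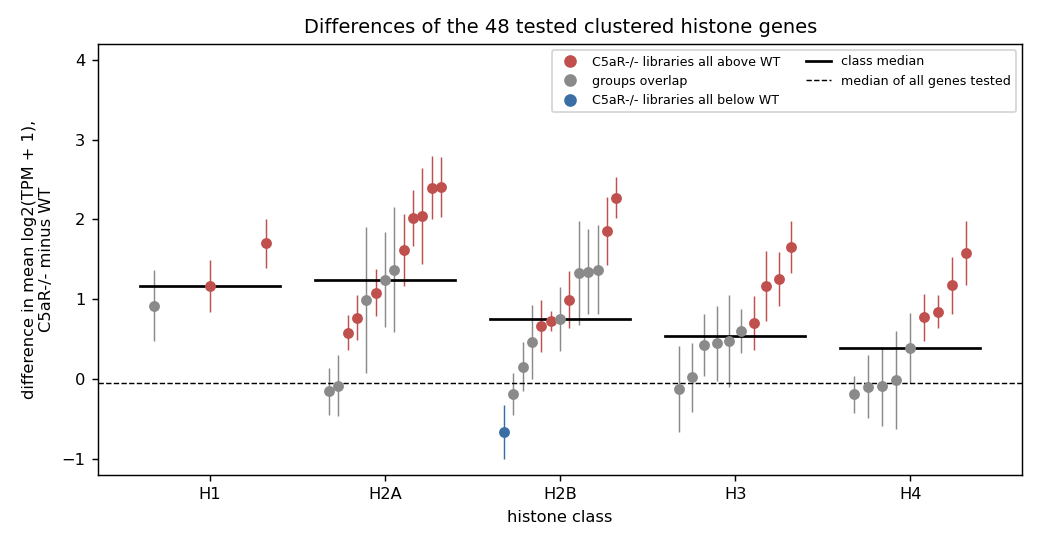
Difference in mean log2(TPM + 1), C5aR-/- minus WT, of the 48 members that passed the filter (points, with the standard error from limma), by class, with the class median (black bar) and the median of all genes tested (dashed line, -0.05). Class medians run from 0.39 in H4 to 1.25 in H2A, and most points lie above the dashed line.

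The H1 genes encode linker histone variants. Hist1h1c (H1.2, chr13:23738808-23740367, plus strand) was the highest member of all, at 170.9, 89.2 and 82.2 TPM in WT TAM 1 to 3 and 200.5, 332.1 and 219.1 TPM in C5aR-/- TAM 1 to 3. All C5aR-/- libraries lay above the WT libraries, but C5aR-/- TAM 1 exceeded WT TAM 1 by less than the WT libraries differed among themselves. The difference in log2(TPM + 1) was 1.17 ± 0.33 (SE). Hist1h1b (H1.5), at 7.15, 3.64 and 5.80 TPM in WT and 13.5, 23.1 and 24.2 TPM in C5aR-/- libraries, was far lower and showed the larger difference of 1.70 ± 0.31. Hist1h1e (H1.4) was at 1.31, 1.27 and 3.06 TPM in WT and 1.84, 5.85 and 6.38 TPM in C5aR-/- libraries, and the groups overlapped. Its locus overlaps that of Hist1h2be on the same strand, so that reads there may belong to either. Hist1h1d (H1.3) and Hist1h1a (H1.1) stayed under the filter, with at most 0.79 TPM in WT and 2.99 TPM in C5aR-/- libraries. Hist1h1t, the linker histone of the testis, did not exceed 0.64 TPM in any library. The coding sequence of Hist1h1c was 84.5% identical to that of Hist1h1d, its closest member, less than in most core histone genes.

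Among H2A genes the highest were Hist2h2aa1 and Hist2h2aa2, which have the same coding sequence and lie on opposite strands of chromosome 3 (chr3:96245497-96246082 and chr3:96239749-96240276). Hist2h2aa1 was at 98.0, 84.6 and 81.5 TPM in WT and 125.9, 104.0 and 43.3 TPM in C5aR-/- libraries, which hold both the highest and the lowest value. Hist2h2aa2 was at 28.0, 57.2 and 36.2 TPM in WT and 110.2, 70.4 and 74.0 TPM in C5aR-/- libraries, without overlap. How reads were shared between identical copies decides such values. Their sum is less open to it, although how reads of near-identical genes were assigned is not given. The sum was 126.0, 141.7 and 117.7 TPM in WT and 236.0, 174.4 and 117.3 TPM in C5aR-/- libraries. The groups overlapped in this sum, with C5aR-/- TAM 3 the lowest of all 6 libraries.

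Other H2A members differed more clearly between the groups. Hist1h2ad was at 7.85, 3.34 and 7.30 TPM in WT and 18.6, 33.8 and 30.1 TPM in C5aR-/- libraries, a difference of 2.02 ± 0.35 in log2(TPM + 1). Hist1h2ap was at 4.73, 4.29 and 15.9 TPM in WT and 23.99, 20.2 and 26.7 TPM in C5aR-/- libraries. Its copy with the same coding sequence, Hist1h2ao, was listed at 0 in all 6 libraries, which a different split of the same reads could change. Hist1h2ag was at 6.13, 4.94 and 0.51 TPM in WT and 14.5, 11.5 and 22.01 TPM in C5aR-/- libraries, a difference of 2.04 ± 0.60 that was 1.34 without WT TAM 3. The largest differences in log2(TPM + 1) belonged to 2 low H2A genes that reached 1 TPM in no WT library and so passed the filter through the C5aR-/- group alone. Hist1h2ak was at 0.62, 0.60 and 0 TPM in WT and 7.10, 3.59 and 9.37 TPM in C5aR-/- libraries, a difference of 2.41 ± 0.38. Hist1h2an was at 0, 0.60 and 0.65 TPM in WT and 3.75, 5.97 and 10.7 TPM in C5aR-/- libraries, a difference of 2.40 ± 0.40. With a pseudocount of 0.1 these differences were 4.10 and 4.08, and the H2B gene Hist1h2br was above them at 4.81. Both share at least 97.5% of their coding sequence with another H2A member. In all, 48 of 67 coding members have such a partner at 95% identity or more, and 8 have an identical one.

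In H2B the 2 highest genes behaved differently. Hist1h2bc was at 80.9, 93.8 and 92.4 TPM in WT and 141.5, 164.4 and 139.1 TPM in C5aR-/- libraries, with a gap between the groups and a difference of 0.73 ± 0.13 in log2(TPM + 1). It is annotated with 2 exons and 742 bases after the stop codon, in which no stem-loop was found. Hist1h2bg was at 62.0, 33.4 and 23.5 TPM in WT and 28.0, 73.4 and 64.1 TPM in C5aR-/- libraries, so that WT TAM 1 lay close to C5aR-/- TAM 3 and C5aR-/- TAM 1 lay within the WT range. Hist1h2bj was at 6.24, 1.54 and 1.21 TPM in WT and 4.61, 4.78 and 19.1 TPM in C5aR-/- libraries, the last value standing alone, and the difference of 1.33 was 0.73 without that library. Hist1h2bf was at 5.16, 2.33 and 1.70 TPM in WT and 5.78, 8.66 and 5.71 TPM in C5aR-/- libraries, without overlap. Hist1h2br was at 0.26, 0 and 0 TPM in WT and 3.53, 3.77 and 5.61 TPM in C5aR-/- libraries, a difference of 2.27 ± 0.26, and shares its coding sequence with Hist1h2bq. Their summed levels were 0.84, 1.29 and 1.22 TPM in WT and 5.17, 7.50 and 7.19 TPM in C5aR-/- libraries, so that here the gap remained in the sum. Hist2h2be was the member with the lowest difference, at 3.50, 8.29 and 4.47 TPM in WT and 3.34, 3.47 and 1.94 TPM in C5aR-/- libraries, where the highest C5aR-/- and the lowest WT library were separated by a narrow margin (-0.67 ± 0.34).

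The highest H3 gene, Hist1h3i, was at 8.48, 4.52 and 6.71 TPM in WT and 7.80, 12.9 and 10.5 TPM in C5aR-/- libraries, with overlap. Hist1h3a, at 5.86, 7.31 and 5.11 TPM in WT and 3.48, 11.4 and 14.8 TPM in C5aR-/- libraries, had its lowest value in C5aR-/- TAM 1. Hist1h3g and Hist1h3d did not overlap between the groups. Hist1h3g was at 1.71, 1.95 and 4.33 TPM in WT and 7.0, 5.57 and 9.93 TPM in C5aR-/- libraries. Hist1h3d was at 2.05, 1.72 and 1.49 TPM in WT and 4.49, 11.2 and 8.76 TPM in C5aR-/- libraries, a difference of 1.66 ± 0.33. Of 10 tested H3 members, 9 had a difference above 0 and 4 lay above WT without overlap, beside 8.84% of all genes. Hist1h3h is counted in both, but it passed the filter through the C5aR-/- group alone, so that its direction and lack of overlap followed from the filter.

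H4 was the class with the most even split. Hist1h4i, the highest, was at 10.8, 12.7 and 15.9 TPM in WT and 19.9, 28.2 and 24.8 TPM in C5aR-/- libraries, a difference of 0.84 ± 0.21. Hist1h4n was at 4.29, 12.0 and 6.96 TPM in WT and 18.1, 13.3 and 21.9 TPM in C5aR-/- libraries. Its copy Hist1h4m has the same coding sequence, and the pair summed to 4.29, 13.2 and 6.96 TPM in WT and 19.97, 13.3 and 22.9 TPM in C5aR-/- libraries, where WT TAM 2 and C5aR-/- TAM 2 nearly met. Hist1h4k and Hist1h4h showed no separation. Hist1h4k was at 8.66, 14.7 and 6.19 TPM in WT and 14.6, 11.1 and 3.8 TPM in C5aR-/- libraries. Hist1h4h was at 4.51, 11.1 and 8.93 TPM in WT and 4.37, 10.3 and 7.93 TPM in C5aR-/- libraries. Of 9 tested H4 members, 5 had a difference above 0 and 4 below, the lowest being Hist1h4j at -0.19 ± 0.23.

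The higher levels lay mainly in the Hist1 cluster on chromosome 13. Its 3 blocks hold 55 of the members and 75.5% of the summed level. The first block (19 genes, chr13:21715763-21837530) summed to 45.3 to 52.2 TPM in WT and 106.3 to 149.5 TPM in C5aR-/- libraries. The second (5 genes, chr13:22035164-22043676) summed to 17.6 to 23.2 TPM in WT and 40.2 to 77.3 TPM in C5aR-/- libraries, and the third (31 genes, chr13:23531050-23934851) to 257.9 to 362.9 TPM and 439.8 to 722.7 TPM. The groups did not overlap in any block. In the Hist2 cluster on chromosome 3 they did, with 10 genes at 134.8, 154.7 and 130.4 TPM in WT and 249.6, 192.9 and 132.3 TPM in C5aR-/- libraries. Hist3, on chromosome 11, was at 13.5, 16.4 and 20.1 TPM in WT and 16.2, 18.3 and 10.5 TPM in C5aR-/- libraries. There, Hist3h2a made up most of the level, at 11.8 to 17.9 TPM in WT and 8.34 to 16.8 TPM in C5aR-/- libraries. Hist3h2ba was at 1.05 to 2.04 TPM in WT and 0.91 to 1.53 TPM in C5aR-/- libraries, and the pseudogene Hist3h2bb-ps did not exceed 1.22 TPM. Hist4h4 on chromosome 6 did not exceed 0.65 TPM. The difference between loci was not tested, since the Hist1 cluster is where the members drew attention.

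Other genes lie between the Hist1 members. From the first to the last gene of the 3 blocks (chr13:21715763-23934851) GENCODE M21 lists 147 other genes, of which 8 passed the filter. Of the 8, none differed 2-fold with an unadjusted p below 0.05 in limma, and 4 had a difference above 0, with a median of -0.01. Hfe, an iron-handling gene within the third block, was the one of the 8 whose groups did not overlap, beside 8.84% of all genes that were higher without overlap. Hfe was at 13.6, 11.7 and 10.9 TPM in WT and 22.7, 22.2 and 16.1 TPM in C5aR-/- libraries. Its difference of 0.70 ± 0.19 had an unadjusted p of 0.00892 and an adjusted p of 0.203 in limma. Zfp184, which separates the first 2 blocks, was at 2.92, 3.13 and 2.68 TPM in WT and 1.69, 2.61 and 3.55 TPM in C5aR-/- libraries.

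Between head-to-head genes the levels often differed widely although they share the DNA between their starts. There are 14 such H2A and H2B pairs, 172 to 305 bases apart. Hist1h2bc, with a mean of 118.7 TPM over the 6 libraries, stands opposite Hist1h2ac, with 1.84 TPM, a ratio of 64.6. Hist1h2bg, with 47.4 TPM, stands opposite Hist1h2ae, with 5.37 TPM, a ratio of 8.83, across the octamer shown above. In Hist1h2ap and Hist1h2br the H2A gene was the higher one (15.97 against 2.19 TPM). In Hist1h2aa and Hist1h2ba, known as germline histones, both were listed at 0 in all libraries. Hist1h2ah and Hist1h2bk, which share the second octamer site above, were both listed at 0 in the 3 WT libraries. Hist1h2ah was at 0, 1.03 and 5.82 TPM and Hist1h2bk at 1.17, 2.29 and 5.63 TPM in C5aR-/- TAM 1 to 3.

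Both genes of a pair passed the filter in 8 cases. In 7 of these both differences were above 0, and in 7 the H2A gene had the larger one. Hist1h2ak, Hist1h2an and Hist1h2br belong to these pairs and passed the filter through the C5aR-/- group alone. Their direction followed from the filter, so that the counts are a description. In Hist1h2ad and Hist1h2bf, for example, the differences were 2.02 and 0.996 in log2(TPM + 1). In the Hist2 pair they lay on both sides of 0, with 1.25 for Hist2h2ac and -0.67 for Hist2h2be. In Hist1h2ap and Hist1h2br the H2B gene had the larger one, 2.27 against 1.61. The scale adds 1 TPM before the logarithm, so that differences of low genes are understated: Hist1h2ac and Hist1h2bc had 0.77 and 0.73 on this scale, but ratios of mean TPM of 2.43 and 1.67.

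**Figure D4:**
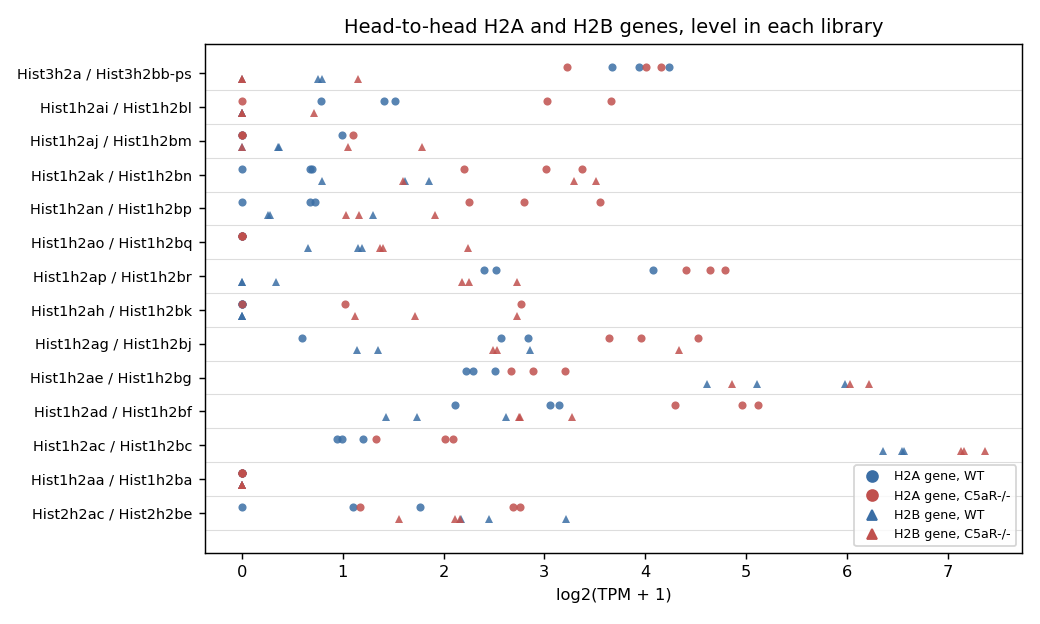
Level, as log2(TPM + 1), of the H2A gene (circles) and the H2B gene (triangles) of each of the 14 head-to-head pairs in the 3 WT (blue) and 3 C5aR-/- (red) libraries. The 2 pairs with the highest H2B genes, Hist1h2ac/Hist1h2bc and Hist1h2ae/Hist1h2bg, show the H2B gene far above its neighbor in every library.

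Members were also grouped by the annotated end of the transcript, with an end of at least 100 bases past the stem-loop (or past the stop codon, where no stem-loop was found) called long. The 22 members with a stem-loop and a short end summed to 181.0, 196.2 and 174.2 TPM in WT and 339.7, 326.7 and 315.5 TPM in C5aR-/- libraries. The 22 with a stem-loop and a long end, Hist1h1c among them, summed to 274.3, 171.8 and 164.4 TPM in WT and 286.3, 500.5 and 360.9 TPM in C5aR-/- libraries. The 5 with a long end and no stem-loop, mainly Hist1h2bc, were at 86.9 to 105.8 TPM in WT and 150.0 to 177.3 TPM in C5aR-/- libraries. The 18 with neither were at 34.6 to 37.7 TPM in WT and 76.4 to 109.3 TPM in C5aR-/- libraries. The groups did not overlap in any of these 4 sums, but 15 of the 18 members with neither have at most 2 annotated bases after the stop codon, so that a stem-loop could not have been found in them. Which 3′ ends the RNA in these libraries had was not measured.

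Genes that work with the clustered histones were examined by list. The 11 replication-independent histone genes are transcribed outside S phase as well, from polyadenylated messages, and they summed to 3351 to 3998 TPM in WT and 3860 to 5295 TPM in C5aR-/- libraries, several times the level of the clustered genes. Of the 10 tested, none differed 2-fold in either direction with an unadjusted p below 0.05 in limma, and their median difference was 0.09. The groups did not overlap in Cenpa, the centromeric H3 variant, higher in C5aR-/- TAMs by 0.72 ± 0.18 (adjusted p = 0.17), and in H2afy2, a macroH2A gene, lower by a difference of -0.80 ± 0.23 (adjusted p = 0.211), beside 8.84% higher and 12.5% lower of all genes. Both are named because of their values. H3f3b, which encodes H3.3, was at 2163, 1394 and 1888 TPM in WT and 2503, 3137 and 2099 TPM in C5aR-/- libraries, with overlap (adjusted p = 0.402). H3f3a, the other H3.3 gene, was at 880 to 960 TPM in WT and 677 to 907 TPM in C5aR-/- libraries. H1f0, the linker histone of resting cells, was at 297, 336 and 385 TPM in WT and 503, 482 and 164 TPM in C5aR-/- libraries. H2afz, which encodes H2A.Z, was at 309 to 354 TPM in WT and 300.1 to 413 TPM in C5aR-/- libraries (adjusted p = 0.675).

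Of 28 tested genes for processing and control of histone messages, none passed that threshold and the median difference was 0.00. Without overlap, 2 of them lay above WT and 4 below, beside 8.84% and 12.5% of all genes. Slbp, the stem-loop binding protein, was at 51.5, 51.9 and 50.7 TPM in WT and 33.5, 55.3 and 54.6 TPM in C5aR-/- libraries (adjusted p = 0.805). Npat, the coactivator of histone gene transcription at S phase entry, was at 8.63, 7.87 and 8.69 TPM in WT and 7.45, 7.31 and 7.17 TPM in C5aR-/- libraries, slightly lower without overlap (adjusted p = 0.661). The highest genes of the list, Snrpe, Snrpb and Srrt, had differences of 0.04, 0.07 and 0.17. Among 18 histone chaperones, 2 lay above WT and 1 below without overlap. Only 1 passed the unadjusted threshold, upward, beside 2.13% of all genes: Asf1b, named here because of its value, which hands H3-H4 to the replication fork machinery. It was at 13.2, 13.1 and 13.8 TPM in WT and 14.7, 33.5 and 44.6 TPM in C5aR-/- libraries (adjusted p = 0.304). The highest chaperone genes, Npm1, Nap1l1 and Ssrp1, had differences of 0.17, 0.08 and 0.10.

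Genes of DNA replication and mitosis were a little higher in many cases. Of 39 tested DNA replication genes, 35 had a difference above 0, the median was 0.31, and 13 lay above WT without overlap, beside 8.84% of all genes, but none differed 2-fold with an unadjusted p below 0.05. Their summed level was 1210, 1370 and 1368 TPM in WT and 1393, 1577 and 1904 TPM in C5aR-/- TAM 1 to 3. Pcna, the sliding clamp of the replication fork, was at 165.1, 185.7 and 151.5 TPM in WT and 188.8, 203.3 and 208.8 TPM in C5aR-/- libraries (adjusted p = 0.406). Mcm7, of the replicative helicase, was at 65.4, 74.9 and 71.9 TPM in WT and 82.5, 126.0 and 150.2 TPM in C5aR-/- libraries (adjusted p = 0.246). Rrm1, a ribonucleotide reductase subunit, had a difference of 0.07.

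Of 20 mitosis genes, 17 had a difference above 0, with a median of 0.30, and 9 lay above WT without overlap, beside 8.84% of all genes, but none differed 2-fold with an unadjusted p below 0.05. Their sum was 762.0, 754.2 and 736.4 TPM in WT and 798.4, 904.2 and 1120 TPM in C5aR-/- TAM 1 to 3. Mki67, the proliferation marker, was at 39.1, 38.6 and 42.8 TPM in WT and 34.0, 58.8 and 63.0 TPM in C5aR-/- libraries (adjusted p = 0.596). Cdk1 and Ube2c had differences of 0.26 and 0.29, and Top2a of -0.01, which was 0.04 after either quantile or median-of-ratios scaling. In both lists C5aR-/- TAM 1 was the lowest library of its group, as it was for 4 of the 5 histone classes. The part of dividing cells in the histone levels was not tested.

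**Figure D5:**
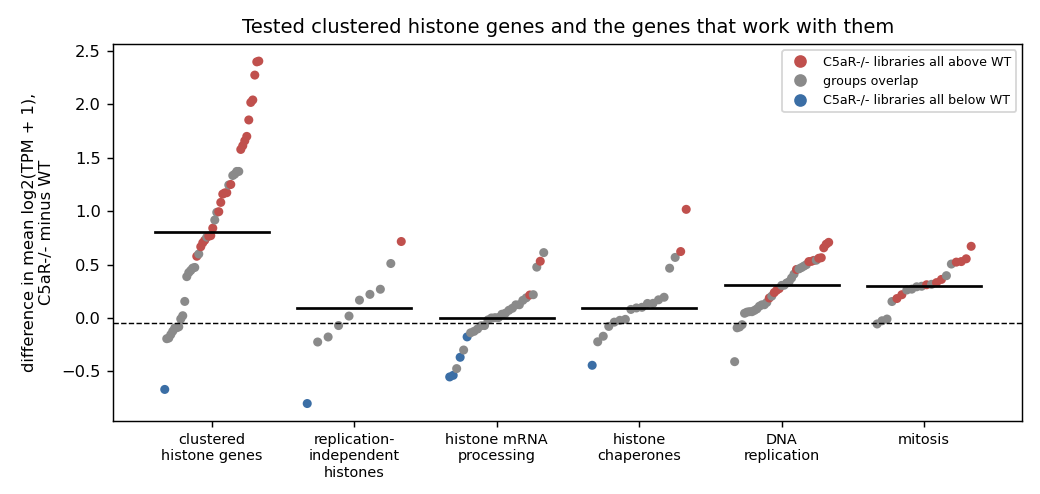
Difference in mean log2(TPM + 1), C5aR-/- minus WT, of the tested clustered histone genes and of the tested genes of 5 lists, with list medians (black bars) and the median of all genes tested (dashed line). The median is 0.81 for the clustered histone genes, 0.31 for DNA replication, 0.30 for mitosis, and between 0.00 and 0.10 for the other 3 lists.

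Markers of other cells were examined beside these values. None of the marker genes was at 0 in all libraries. The 6 neutrophil genes summed to 568.3 to 2105 TPM in WT and 19.9 to 323.8 TPM in C5aR-/- libraries. Of the 5 tested, 3 were lower by 2-fold or more with an unadjusted p below 0.05 in limma, beside 2.84% of all genes. Ly6g, against which the cells were sorted, was at 0.62 to 4.94 TPM in WT and at most 0.56 TPM in C5aR-/- libraries. The 4 B cell genes summed to 32.05 to 159.7 TPM and 8.09 to 153.8 TPM, and the 6 T cell genes to 24.9 to 85.8 TPM and 21.1 to 54.0 TPM, with overlap in both. Among the epithelial or mesothelial genes, Msln was at 134.5 to 179.6 TPM in WT and 267.9 to 288.2 TPM in C5aR-/- libraries and Krt8 at 455.3 to 464.6 TPM and 624.0 to 757.5 TPM, while Upk3b was at 290.5 to 379.7 TPM and 48.8 to 205.8 TPM. Of the 8 genes, 3 had a difference above 0 and 5 below. The part of these cells in the histone levels was not tested.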

How the data were processed

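Per the labels and the study's methods, live CD45+CD11b+Ly6G-F4/80+ cells were sorted from ID8 tumors of WT and C5aR-/- mice, and poly(A) RNA was selected in repeated rounds of oligo(dT) and sequenced with a dUTP stranded paired-end protocol. The submitters' processing notes name fastp, HISAT2, StringTie, RSEM, DESeq2 and mm10, without versions, and which tool assigned reads to near-identical genes is not given in the sources used here. The authors deposited 1 table of TPM per gene for 6 libraries, with group means that were not used. The methods name FPKM, but each column sums to 1000000, and it was treated as TPM. Read depth is unknown. Legends of the study name more mice per group than there are libraries here, and whether each library is 1 mouse is not stated, so that p-values measure the spread between these libraries.

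Symbols, coordinates and transcripts came from GENCODE M21 (GRCm38, the build mm10) and promoters from RefSeq GRCm38.p6. Members, gene lists and tests were chosen with earlier results of these data known. The 14776 genes that reached 1 TPM in 3 or more of the 6 libraries were fitted as log2(TPM + 1) with limma 3.58.1 in R 4.3.3 (eBayes with trend, Benjamini-Hochberg adjustment over all genes), without a replicate term. The procedure was tested on simulated data. With 3 libraries against 3, a two-sided exact permutation test cannot go below 0.1, and none was run on single values. Class levels are sums of TPM over all members, as mean ± SD. Coding sequences were compared by edit distance (edlib). Members named in the text are the 4 with the highest mean TPM in each class, every H1 member, every member outside Hist1 and Hist2, and, among tested members, the 5 with the largest and 3 with the smallest difference. From each list of other genes, the 3 with the highest mean and Slbp, Npat, Mki67, H2afz, H3f3b and H1f0 are named. Genes named beyond this were chosen after their values were seen: the members in head-to-head or identical pairs, Hist1h4b (for its stem-loop), Hfe, Zfp184, Asf1b, Cenpa, H2afy2 and the marker genes. Alternatives were eBayes without trend, a replicate block, leaving out each library, quantile normalization, scaling by the median of ratios, the filter raised to 5 TPM or dropped, and 0.1 as pseudocount. Columns of other series numbered 0.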

Additional observations from a re-analysis of the deposited data

How the results depend on the processing

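The number of members that differed 2-fold or more with an adjusted p below 0.05 was 0 in limma under every alternative that kept all libraries, and 0 to 8 when 1 library was left out, the 8 without C5aR-/- TAM 1. In that fit 356 genes in all (2.41%) passed, and the choice of members had used these values. With the p left unadjusted the number was 17 in the reported analysis, 14 to 21 when 1 library was left out, and 8 with the filter raised to 5 TPM, where only 20 members could be tested. The shares over all genes tested were 4.96%, 3.84% to 8.57% and 4.25%, and the highest was also the one without C5aR-/- TAM 1. The number whose groups did not overlap was 24, then 24 to 34 without 1 library, and 12 with the filter at 5 TPM. Over all genes the shares were 8.84% higher and 12.5% lower in the reported analysis, and they were not counted under the alternatives. With 1 library fewer, groups separate more easily, so that a rise in this number says nothing about the members. The median difference of 0.81 was 1.13 with a pseudocount of 0.1 and ran from 0.73 to 0.98 without 1 library. The log2 ratio of the H2A sum was 1.30 in place of 0.79 without Hist2h2aa1. Without 1 library it ran from 0.93 to 1.56 for H1, 0.71 to 0.88 for H2A, 0.66 to 0.91 for H2B, 0.88 to 1.198 for H3 and 0.52 to 0.91 for H4, and it stayed above 0 throughout. The replicate numbers were not taken to pair the libraries: deviations of same-numbered libraries from their group means correlated across genes at 0.186, -0.011 and 0.273, and 4 of 6 libraries correlated best with their own number. The summed macrophage markers fell with the replicate number in both groups, and what the numbers stand for is not stated. With the replicate block, 16 members differed 2-fold with an unadjusted p below 0.05 in place of 17, and it changed no other count by more than 1.5 times. Of 589 alternative values of 46 single genes, 584 moved by less than the spread between libraries, and 5 moved by more. The sign was opposite in 19 values of 10 genes, all with differences of at most 0.155 in size in the reported analysis. As the table gives no counts, depth sets no stated limit, and values of low or near-identical members are the least certain.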
